A study of Caenorhabditis elegans with 9 samples.

Results

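The left part of the X chromosome of Caenorhabditis elegans is described here through the genes that start within the first 6000000 bp of the chromosome on the WS220 genome, a stretch that makes up 33.9% of the X chromosome up to the end of its last gene. A gene was kept as a member where it had 10 or more counts in 3 or more of the 9 libraries. That left 690 of the 927 genes of the region (74.4%), beside 13425 of 20389 genes (65.8%) over the whole genome. Of the genes left out, 17 had no count in any library. The members included 663 protein-coding genes, and 573 members had at least 10 counts in all 9 libraries. Around the minimum, 20 members reached 10 counts in exactly 3 libraries and 21 genes left out did so in exactly 2. At the right border the last member, F22F4.4 (X, 5999572 to 6001499), had log2 fold changes against wild type of 0.17 in the strain with tagged DPY-27 and 0.57 in the strain with its mutant form, and the first gene outside, sups-1 (X, 6004447 to 6007008), had 0.46 and 0.56.

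In C. elegans, hermaphrodites carry a pair of X chromosomes and males a single one, and the dosage compensation complex lowers transcription from both hermaphrodite X chromosomes. The complex is built around condensin DC, a specialised condensin whose SMC4 subunit is DPY-27. It is recruited at discrete X-linked sites and spreads along the chromosome, and the condensin motor depends on ATP hydrolysis by its SMC subunits. X-linked genes are therefore read against autosomal genes of the same libraries when the complex is perturbed.

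Polyadenylated RNA of mixed embryos was sequenced from 3 strains with 3 libraries each, and wild-type worms (N2) were treated like the transgenic ones. Parents of every strain spent 30 min at 35°C as a heat shock and recovered for 2 h before embryos were taken. The strain labelled MK14 carried hsp::dpy-27::gfp, an extra copy of dpy-27 fused to GFP, and is called DPY-27::GFP. The strain labelled KB01 carried hsp::dpy-27[EQ-TR]::gfp, the same fusion with a glutamate-to-glutamine change in the Walker B motif of its ATPase, DPY-27(EQ)::GFP, and is called the EQ strain. In condensins of other species this change is known to reduce ATP hydrolysis strongly; hydrolysis by DPY-27 was not measured here. Both transgenes were driven by the hsp-16-41 heat-shock promoter from a single site on chromosome II rather than a promoter specific to a cell type, and both strains still had their own dpy-27 gene. The comparisons ask whether X-linked genes, here those at the left end, moved against autosomal genes when tagged or tagged and mutated DPY-27 was expressed from the transgene.

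Reads counted on genes ranged from 17107945 to 23536013 in the wild-type libraries, from 7062182 to 9582838 in DPY-27::GFP and from 7573682 to 21281027 in the EQ strain, and members held 4.94% to 5.56% of them. For each read on a gene, 1.04 to 1.09 reads fell on no annotated feature in wild type, against 0.0346 to 0.0826 in the transgenic strains. One library name prefix is shared by all wild-type libraries and EQ-strain replicate 3, and a different one by the rest. CPM (counts per 1000000 counted reads, scaled with the TMM method) of dpy-27 were 462, 471 and 485 in the wild-type libraries, 803, 449 and 819 in DPY-27::GFP and 591, 516 and 900 in the EQ strain. The library labelled DPY-27::GFP replicate 2 was thus the lowest of all 9, below wild type, and results are also given without it. The embryo stage of the labels was checked against markers: 23 of 24 maternal and 18 of 18 late-embryo autosomal genes passed the count minimum and 0 of 26 autosomal sperm protein (msp) genes did, 2 of them at 0 in every library. The labels number the replicates without saying that they came from separate cultures, and the study states biological replicates for mRNA of another strain, so p-values here measure the spread between these samples, which may in part be technical.

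Within each library, members were set against autosomal genes as the median deviation from each gene's mean over the 9 libraries, in log2 CPM. Wild-type replicates 1 to 3 were at -0.089, 0.016 and -0.14. The DPY-27::GFP replicates were at 0.0076, 0.20 and -0.10. The EQ-strain replicates were at 0.12, -0.04 and 0.093. The strains overlapped: the library labelled DPY-27::GFP replicate 2 was the highest, replicate 3 of the same strain was among the lowest, and the highest wild-type library lay above the lowest library of each transgenic strain. The means were -0.07 ± 0.078 (SD, n = 3) in the wild-type libraries, 0.037 ± 0.16 in DPY-27::GFP and 0.058 ± 0.086 in the EQ strain. The difference of means was 0.11 for DPY-27::GFP and 0.13 for the EQ strain against wild type, beside a pooled standard deviation within strains of 0.11, and 0.021 between the transgenic strains.

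**Figure D1:**
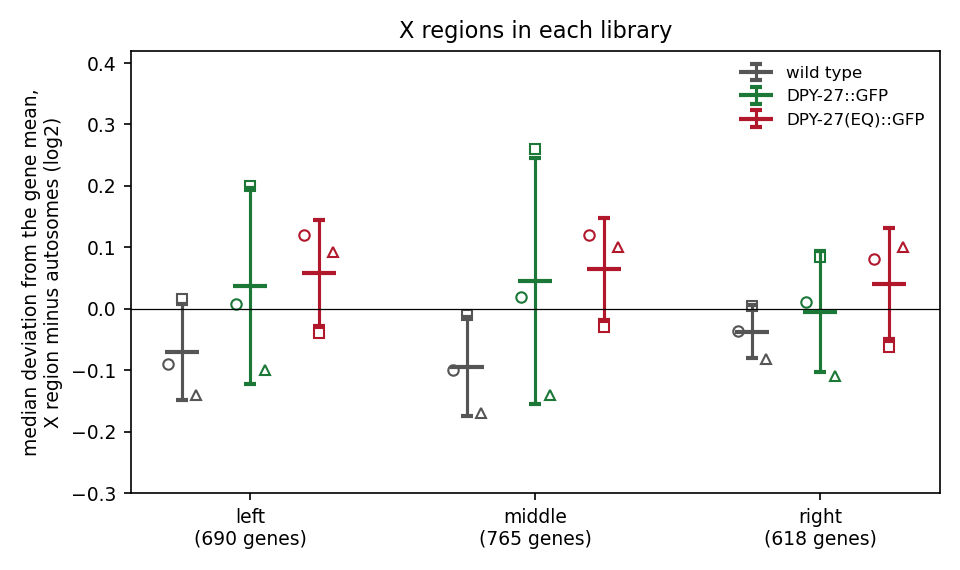
X-linked genes of the left, middle and right of the X chromosome against autosomal genes in each library (y axis, log2; x axis, region), with open circles, squares and triangles for replicates 1, 2 and 3 and bars for the mean ± SD of 3 libraries per strain. In the left region the wild-type libraries lie between -0.14 and 0.016, the DPY-27::GFP libraries between -0.10 and 0.20 and the EQ-strain libraries between -0.04 and 0.12.

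The extremes among the libraries were the same for members and for embryo-stage markers. The 23 maternal genes were, relative to autosomal genes, highest in wild-type replicate 3 (0.97 on the log2 scale) and lowest in the library labelled DPY-27::GFP replicate 2 (-0.85). The 18 late-embryo genes were lowest in the former (-0.59) and highest in the latter (0.75). These were also the lowest and the highest library for members. The TPM (transcripts per 1000000, normalized for gene length by the authors) summed over the 24 maternal genes ranged from 937 to 1637 in the wild-type libraries, 709.8 to 1610.3 in DPY-27::GFP libraries and 866 to 1267 in the EQ strain, and none was at 0 in every library. The same sum over the late genes ranged from 12448 to 14558, 12471 to 17349 and 13157 to 17361. Over the 26 msp genes it was 17.9 in wild-type replicate 1 and 2.87 to 7.16 in the other libraries. Against wild type, 7 maternal genes were called lower in each transgenic strain, while 6 late genes in DPY-27::GFP and 2 in the EQ strain were called higher and 1 late gene in DPY-27::GFP lower. Of all autosomal genes tested, 7.57% in DPY-27::GFP and 5.34% in the EQ strain were called lower, and 3.15% and 1.82% higher. The part of stage in the values of the left region was not tested.

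Gene by gene, the shift of the left region is the median log2 fold change of its 690 members minus that of the 11344 autosomal genes in an edgeR fit of all 9 libraries. It was 0.062 in DPY-27::GFP against wild type, where 386 members (55.9%) lay above the autosomal median. It was 0.14 in the EQ strain against wild type, with 439 members (63.6%) above. Both comparisons use the same wild-type libraries. The EQ strain against DPY-27::GFP gave 0.049, with 414 members (60.0%) above. Members and autosomal genes were about equally spread: the interquartile range of log2 fold changes was 0.61, 0.58 and 0.25 for members in the 3 comparisons and 0.61, 0.58 and 0.26 for autosomal genes.

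**Figure D2:**
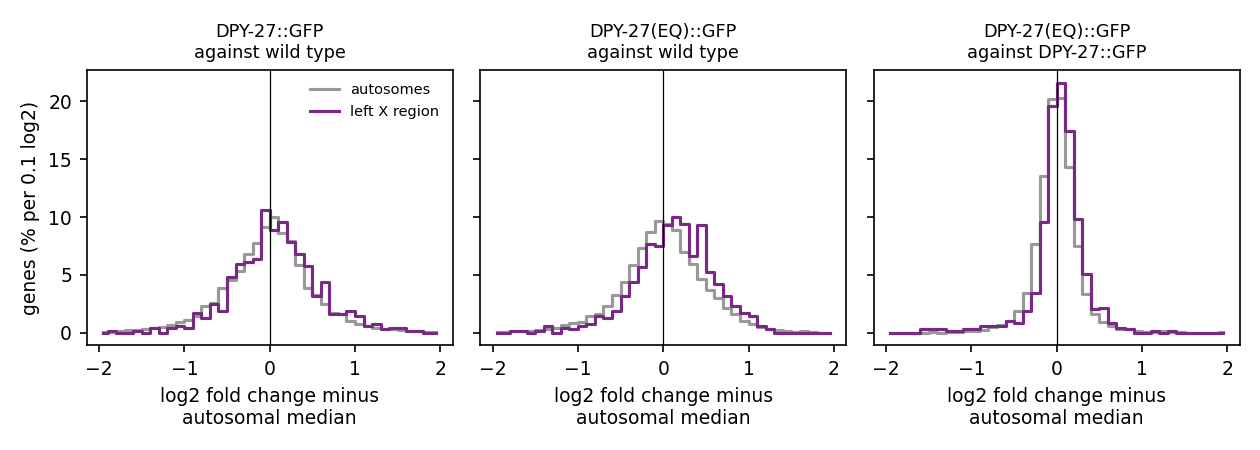
Distribution of log2 fold changes relative to the autosomal median (x axis) as the percentage of genes per step of 0.1 (y axis), for the 690 members and for autosomal genes, in each of the 3 comparisons. The curves overlap over nearly their whole range, and the members lie to the right by a median of 0.062, 0.14 and 0.049. Members outside the plotted range of -2 to 2 number 7, 2 and 1.

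Autosomes differ among themselves by amounts of the same order. In DPY-27::GFP against wild type, chromosome medians ran from -0.036 on chromosome I to 0.052 on chromosome V, just under the left region. They ran, in the EQ strain against wild type, from -0.053 to 0.089 on the same chromosomes, below the left region at 0.14. Between the transgenic strains they ran from -0.015 to 0.014, against 0.049. The middle of the X chromosome had shifts of 0.14, 0.17 and 0.031 in the 3 comparisons. In the right part they were 0.032, 0.064 and 0.044. Against wild type the left region lay between them. Its fitted value between the transgenic strains was slightly above both, an order that the means per library did not keep. Those means differed by 0.021 on the left, 0.021 in the middle and 0.045 on the right. Within libraries the left region minus the middle was 0.024 ± 0.012 (SD, n = 3) in the wild-type libraries, -0.008 ± 0.044 in DPY-27::GFP and -0.0078 ± 0.0058 in the EQ strain. The libraries of wild type, at 0.012 to 0.034, lay above those of the EQ strain, at -0.011 to -0.0011, and overlapped those of DPY-27::GFP. The left region minus the right part was -0.032 ± 0.039, 0.041 ± 0.069 and 0.017 ± 0.026, and overlapped in all strains.

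The size of the shift varied with the libraries in the fit. In DPY-27::GFP against wild type it was 0.012 without the library labelled DPY-27::GFP replicate 2, 0.15 without replicate 3 and 0.10 without replicate 1 of that strain. Leaving out wild-type libraries, it was 0.024 without replicate 3 and 0.10 without replicate 2. The shift of the EQ strain against wild type was 0.092 without wild-type replicate 3 and stayed between 0.12 and 0.18 without any other single library. Between the transgenic strains it ranged from -0.02 without DPY-27::GFP replicate 3 to 0.14 without the library labelled replicate 2 of that strain, and was 0.018, 0.097 and 0.025 without EQ-strain replicates 1, 2 and 3. Within the prefix shared with wild type, EQ-strain replicate 3 was at 0.093 beside a wild-type mean of -0.07. That value rests on 1 library, and the shared prefix did not make it like the wild-type libraries. Its reads outside annotated features numbered 0.0826 per gene read, while the wild-type libraries had 1.04 to 1.09. Within the other prefix the EQ-strain libraries had a mean of 0.04 (2 libraries) beside 0.037 in DPY-27::GFP. No library of DPY-27::GFP shares a prefix with wild type, so there is no value within a prefix for that comparison. A fit with the prefix as a covariate, in which only the EQ strain holds both prefixes, gave shifts of 0.12 and 0.15 against wild type and 0.025 between the transgenic strains.

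The length-normalized TPM of the authors gave levels between genes and a smaller shift. The median member was at 13.46, 13.25 and 12.21 TPM in the wild-type libraries, 16.21, 16.09 and 13 in DPY-27::GFP and 14.53, 16.53 and 15.3 in the EQ strain. As a ratio to the autosomal median of the same library this was 0.749 ± 0.0393 (SD, n = 3) in the wild-type libraries, 0.758 ± 0.0667 in DPY-27::GFP and 0.793 ± 0.0177 in the EQ strain, and the libraries overlapped. On log2(TPM + 1), a scale that understates changes of low genes, the shift was -0.00072 in DPY-27::GFP against wild type, 0.056 in the EQ strain against wild type and 0.042 between the transgenic strains, so the sign for DPY-27::GFP differed from that on counts. With a pseudocount of 0.1 it was 0.0066, 0.081 and 0.045. In the edgeR fit the shift was larger at low than at high levels. Over 3 equal groups of 230 members ordered by mean log2 CPM, the shift from the lowest to the highest group was 0.17, 0.063 and 0.0067 in DPY-27::GFP against wild type. It was 0.22, 0.15 and 0.08 in the EQ strain against wild type. Autosomal genes, cut into 3 groups by their own mean log2 CPM, gave 0.043, -0.053 and 0.02, and 0.071, -0.033 and -0.011. Their limits were not those of the member groups, so the groups are not matched in level. As deviations per library, the member groups were at 0.44, 0.17 and 0.061 in the library labelled DPY-27::GFP replicate 2. They were at 0.0065, 0.002 and 0.018 in replicate 1 and at -0.23, -0.11 and -0.022 in replicate 3 of that strain. EQ-strain replicates 1, 2 and 3 were at 0.15, -0.028 and 0.12 in the lowest group and 0.11, -0.091 and 0.098 in the highest.

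Along the region, 12 bins of 500 kb held 35 to 72 members each. In DPY-27::GFP against wild type 10 bins lay above the autosomal median, from 0.022 to 0.26, and 2 below it. The EQ strain against wild type had the same count of 10 above, from 0.11 to 0.27. The bins below were bins 3 and 4, from 1.0 to 2.0 Mb, in both comparisons, at -0.11 and -0.088 in DPY-27::GFP and at -0.07 and -0.25 in the EQ strain. Without these 86 members the shift of the remaining 604 was 0.11 and 0.17. The bins left out were picked for their low values, so a higher shift of the rest follows from that choice. Between the transgenic strains the bins ran from -0.031 to 0.085, with 9 above and 3 below.

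**Figure D3:**
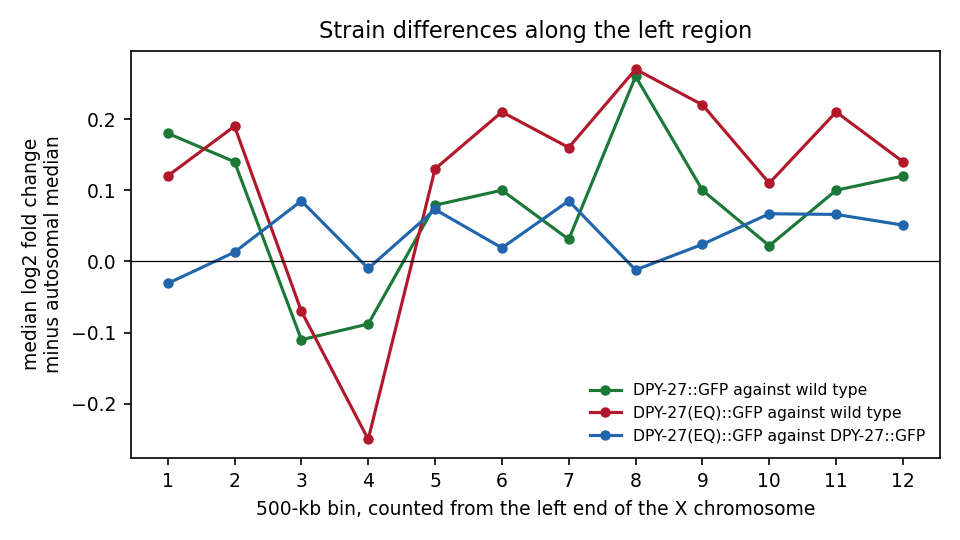
Shift of each 500-kb bin (y axis, median log2 fold change of its members minus the autosomal median) in order from the left end of the X chromosome (x axis, bins 1 to 12), for the 3 comparisons. Bins 3 and 4 lie below 0 in both comparisons with wild type, bin 8 is the highest in both at 0.26 and 0.27, and the comparison of the transgenic strains stays within -0.031 and 0.085.

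Most libraries stayed on one side of autosomal genes along the region. EQ-strain replicates 1 and 3 and the library labelled DPY-27::GFP replicate 2 were above autosomal genes in 11 of 12 bins. Wild-type replicates 1 and 3, DPY-27::GFP replicate 3 and EQ-strain replicate 2 were below in 11 of 12. Each strain thus had at least 1 library on the low side, and both transgenic strains had libraries on both sides. Wild-type replicate 2 and DPY-27::GFP replicate 1 had 7 bins above and 5 below.

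**Figure D4:**
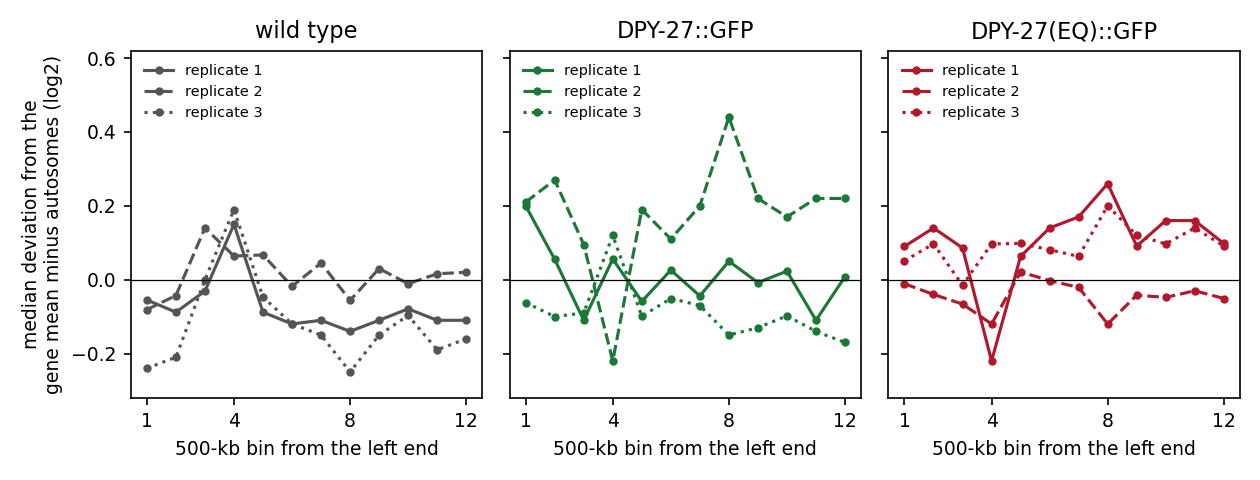
Median deviation of the members of each 500-kb bin from their mean over all libraries, minus that of autosomal genes (y axis, log2), in bin order from the left end of the X chromosome (x axis), with 1 panel per strain and 1 line per library. Libraries of a strain are separated by offsets that run through most bins, and in bin 4 wild-type libraries are at 0.064 to 0.19 and the library labelled DPY-27::GFP replicate 2 and EQ-strain replicate 1 at -0.22.

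Bin 4, from 1.5 to 2.0 Mb, held 35 members of 80 genes, with a median of 4.28 TPM. Its libraries were at 0.15, 0.064 and 0.19 for wild type, 0.056, -0.22 and 0.12 in DPY-27::GFP and -0.22, -0.12 and 0.097 in the EQ strain, so EQ-strain replicate 1 and the library labelled DPY-27::GFP replicate 2, both above autosomal genes in 11 of 12 bins, were the lowest here. The bin includes neighbouring ONECUT homeobox genes and genes of embryonic P granules, named here after their values were seen. ceh-39, an ONECUT gene that counts among the X signal elements of sex determination, was at 91.6, 81.2 and 111 CPM in the wild-type libraries, 76.4, 45 and 94.3 in DPY-27::GFP and 53, 63.8 and 79.2 in the EQ strain. Its neighbour ceh-21 was at 76.6, 69.3 and 91.0, then 54.1, 40.3 and 67.7, then 43.7, 50.2 and 58.8 CPM in the same order. Wild type lay above both transgenic strains in ceh-21 and above the EQ strain in ceh-39. Neither gene passed the edgeR test, with adjusted p of 0.301 and 0.186 for ceh-39 and 0.0866 and 0.068 for ceh-21 in DPY-27::GFP and the EQ strain against wild type. meg-3, which encodes a P granule protein, was at 72.1, 69.4 and 97.7 CPM in the wild-type libraries, 70.6, 37.3 and 86.7 in DPY-27::GFP and 53.4, 67.6 and 66.6 in the EQ strain. In meg-3, wild type lay above the EQ strain and overlapped DPY-27::GFP. ceh-41, a further ONECUT gene, was at 18.9, 18.2 and 20.5 CPM in the wild-type libraries, 13.4, 12.2 and 19.9 in DPY-27::GFP and 15.8, 18.4 and 14.6 in the EQ strain, and overlapped in all strains. meg-4, the paralog of meg-3, was at 22.4, 19.9 and 30.5, then 22, 11.6 and 34.9, then 13.8, 19.5 and 19.7 CPM, with wild type just above the EQ strain and overlapping DPY-27::GFP. Neither was called. The library labelled DPY-27::GFP replicate 2 was the lowest in all of these genes, as it was for the maternal markers. The other members of the bin are not shown, and the part of stage in the values of bin 4 was not tested.

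Bin 8, from 3.5 to 4.0 Mb, held 58 members and had the widest range over libraries, 0.69 on the log2 scale, from -0.25 in wild-type replicate 3 to 0.44 in the library labelled DPY-27::GFP replicate 2. DPY-27::GFP against wild type had 40 of its members above the autosomal median, with 5 called higher and 1 lower. Upward calls made up 3.23% of all genes tested there, downward calls 7.11%. For the EQ strain 39 lay above, with 2 called higher and 0 lower. The genome-wide shares were 1.88% upward, 4.98% downward. Bin 8 was picked for its high shift and wide range, so its high values follow in part from that choice. Whether calls were more frequent in this bin than elsewhere was not tested. The bin holds ceh-18 and tmem-24, described below among the called members.

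Single members were called where the Benjamini-Hochberg adjusted p of edgeR's quasi-likelihood test, over all 13425 genes, was under 0.05. In DPY-27::GFP against wild type 26 members (3.77%) were called higher, where 3.23% of all genes were, and 27 (3.91%) lower, where 7.11% of all genes were. In the EQ strain against wild type 16 (2.32%) were called higher beside 1.88% of all genes, and 18 (2.61%) lower beside 4.98%. The share called higher was thus close to that of all genes and the share called lower smaller in both comparisons. Counting members whose 3 libraries all lay on one side of all wild-type libraries, 89 were higher (12.9%, beside 10.6% of all genes) and 108 lower (15.7%, beside 17.6%) in DPY-27::GFP. In the EQ strain 163 were higher (23.6%, beside 18.6%) and 105 lower (15.2%, beside 21.6%).

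The counts of calls depended on which libraries were in the fit. Members called higher in DPY-27::GFP against wild type numbered 4, 7 and 0 without wild-type replicates 1, 2 and 3, and 2, 9 and 106 without replicates 1, 2 and 3 of DPY-27::GFP. They numbered 16, 14 and 11 without EQ-strain replicates 1, 2 and 3, which enter the estimate of spread and the scaling. The count minimum was set once on all 9 libraries and was the same in these fits. Those called lower numbered 11, 14 and 10 without the wild-type replicates, and 9 and 51 without DPY-27::GFP replicates 1 and 3. In the EQ strain against wild type, members called higher numbered 0, 6 and 0 without the wild-type replicates, 0, 5 and 0 without its own, and 10, 69 and 55 without those of DPY-27::GFP. Those called lower numbered 9, 10 and 6, then 7, 8 and 6, and 41 and 33 without DPY-27::GFP replicates 2 and 3. When the prefix entered the fit as a covariate, 0 members were called higher in either comparison by edgeR, and 30 and 61 members were higher at an unadjusted p under 0.05. In the other fits by edgeR that called 0 members higher, 57 to 82 members were higher at an unadjusted p under 0.05. DESeq2 on all 9 libraries called 60 and 52 higher. The share of all genes called in each of these fits is not given here. These counts alone therefore do not set members apart from other genes.

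Between the transgenic strains, edgeR called 0 members higher and 0 lower, beside 0 of all 13425 genes (0%), and DESeq2 called 0 of each as well. At an unadjusted p under 0.05 by edgeR there were 9 members (7 higher, 2 lower), 1.30% of them, beside 1.01% of all genes. Without the libraries labelled DPY-27::GFP replicates 1, 2 and 3, these numbered 1, 66 and 5 higher and 1, 24 and 14 lower. The share of all genes in those fits is not given here. Members whose EQ-strain libraries all lay above those of DPY-27::GFP numbered 24 (3.48%, beside 2.82% of all genes), and 4 lay below (0.580%, beside 1.5%). These counts do not show that the 2 proteins act alike: the standard error of a single member such as unc-1 was 0.140 on the log2 scale.

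Among the members called higher, unc-1 (K03E6.5; X, 1057547 to 1062444) encodes a stomatin-like protein needed for normal locomotion. It was at 66.7, 72.8 and 64.4 CPM in the wild-type libraries, 103, 125 and 94.6 in DPY-27::GFP and 118, 99.0 and 116 in the EQ strain. Both transgenic strains lay wholly above wild type and overlapped each other. Its log2 fold change against wild type was 0.67 ± 0.140 (SE, edgeR adjusted p = 0.0135) in DPY-27::GFP and 0.71 ± 0.140 (adjusted p = 0.0119) in the EQ strain. Genes named by rule had to show no overlap with wild type in the comparison they were named for. Such separation therefore follows from the choice. tmem-24 (R11G1.6; X, 3639156 to 3644883) is named after TMEM24, a human lipid transfer protein. It was at 78.8, 86.3 and 69.9 CPM in the wild-type libraries, 139.9, 159 and 105 in DPY-27::GFP and 156, 117 and 141.8 in the EQ strain, again without overlap with wild type. Its log2 fold changes were 0.78 ± 0.171 (edgeR adjusted p = 0.0156) and 0.82 ± 0.171 (adjusted p = 0.0157).

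txdc-12.2 (F49H12.5; X, 2074441 to 2075938), a thioredoxin-domain gene, was at 174, 214 and 197 CPM in the wild-type libraries, 278, 303 and 263 in DPY-27::GFP and 316, 262 and 297 in the EQ strain. Its log2 fold changes against wild type were 0.53 ± 0.130 (edgeR adjusted p = 0.0268) and 0.58 ± 0.130 (adjusted p = 0.0231). dpyd-1 (C25F6.3; X, 5467837 to 5472651), which encodes dihydropyrimidine dehydrogenase of pyrimidine breakdown, was at 126, 142.2 and 123 CPM in the wild-type libraries, 208, 203 and 174 in DPY-27::GFP and 190.4, 175 and 179 in the EQ strain. The transgenic strains did not overlap wild type in either gene. dpyd-1 gave log2 fold changes of 0.58 ± 0.122 (edgeR adjusted p = 0.014) and 0.48 ± 0.122 (adjusted p = 0.0387). tmc-1 (T13G4.3; X, 1163149 to 1177171), a member of the transmembrane channel-like family, gave 1.02 ± 0.234 (edgeR adjusted p = 0.0198) and 0.91 ± 0.233 (adjusted p = 0.0392). lfi-1 (ZC8.4; X, 4983034 to 4993205), named for an interaction with the spindle protein LIN-5, gave 0.88 ± 0.197 (edgeR adjusted p = 0.0175) in DPY-27::GFP and did not pass in the EQ strain (0.69 ± 0.197, adjusted p = 0.0564). The span of lfi-1, introns included, is overlapped over 10172 bp by ZC8.6 on the opposite strand. Overlap of exons was not measured. Without a stated strand setting of the counting, reads of these genes may not be told apart where their exons coincide.

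gbb-1 (Y41G9A.4; X, 2957923 to 2968157), a subunit of the metabotropic GABA-B receptor, was at 19.4, 22.3 and 20.9 CPM in the wild-type libraries, 35.6, 40.7 and 22.9 in DPY-27::GFP and 39.3, 37.1 and 39 in the EQ strain. DPY-27::GFP replicate 3 lay just above the highest wild-type library and all EQ-strain libraries far above. The gbb-1 log2 fold changes were 0.67 ± 0.190 (edgeR adjusted p = 0.0449) and 0.88 ± 0.189 (adjusted p = 0.0181). ctbp-1 (F49E10.5; X, 5862721 to 5873285), a transcriptional corepressor, had 0.44 ± 0.124 (edgeR adjusted p = 0.0438) and 0.50 ± 0.124 (adjusted p = 0.0338). ssr-2 (C14A11.7; X, 2823281 to 2826819) was at 2.68, 2.74 and 1.99 CPM in the wild-type libraries, 4.69, 4.90 and 3.48 in DPY-27::GFP and 5.40, 4.73 and 5.46 in the EQ strain, and was called in the EQ strain only (1.08 ± 0.247, edgeR adjusted p = 0.0254), with 0.83 ± 0.254 (adjusted p = 0.0573) in DPY-27::GFP. The difference between the transgenic strains was not past the threshold for ssr-2 (0.25 ± 0.251, edgeR adjusted p = 1).

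These calls upward were sensitive to the libraries in the fit, while the fold changes moved less. Of the 6 named for DPY-27::GFP (unc-1, dpyd-1, tmem-24, lfi-1, tmc-1 and txdc-12.2), 1 remained called without wild-type replicate 1, 5 without replicate 2 and 0 without replicate 3 of wild type (edgeR adjusted p 0.0686 to 0.113) and 1 without DPY-27::GFP replicate 1. All 6 remained called without the library labelled DPY-27::GFP replicate 2. Of the 6 named for the EQ strain (unc-1, tmem-24, gbb-1, txdc-12.2, ssr-2 and ctbp-1), 0 remained without wild-type replicates 1 or 3 or EQ-strain replicates 1 or 3 (adjusted p 0.0642 to 0.145 over these 4 fits), and 4 remained without replicate 2 of either strain. Over all 9 fits with a library left out, the log2 fold changes of these genes were 0.78 to 1.26 times those with all libraries in DPY-27::GFP and 0.88 to 1.17 times in the EQ strain. In the comparison for which they were not selected, gbb-1 and ctbp-1 kept their call in DPY-27::GFP in 1 of 9 fits each with a library left out (edgeR adjusted p up to 0.147 and 0.142), and dpyd-1 and tmc-1 in the EQ strain in 3 and 2 (up to 0.163 and 0.202). When the prefix entered the fit, 0 of 6 remained in either comparison (adjusted p 0.378 to 0.493 and 0.130 to 0.262), with log2 fold changes of 0.55 to 1.18 and 0.53 to 1.15, which were 0.95 to 1.17 and 1.02 to 1.09 times those without the prefix.

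**Figure D5:**
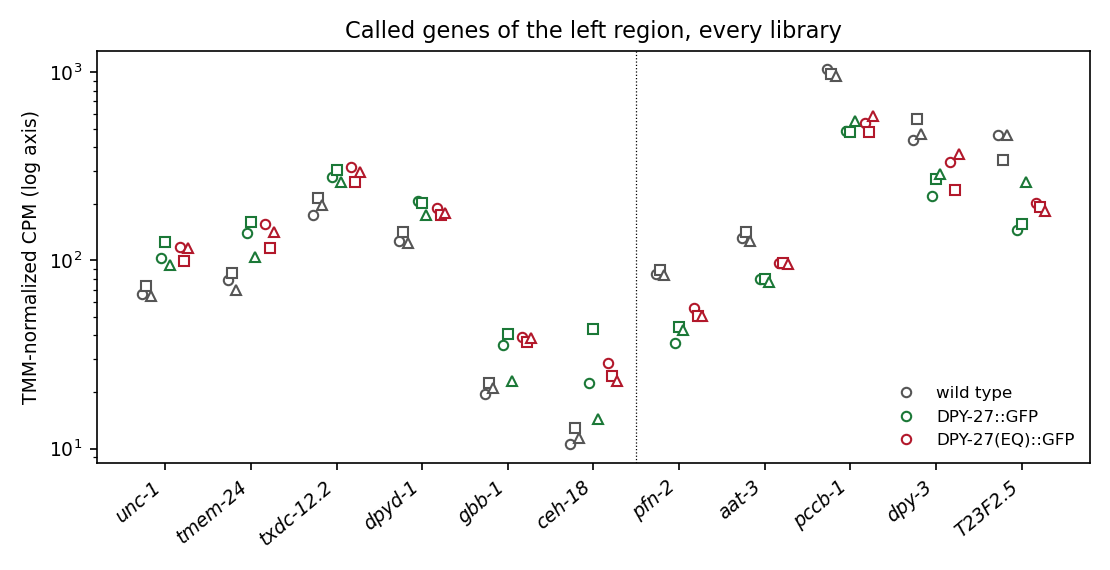
TMM-normalized CPM (y axis, log scale) of 6 members called higher, left of the dotted line, and 5 called lower, right of it, in the comparisons of DPY-27::GFP and the EQ strain against wild type (x axis, genes). Open circles, squares and triangles are replicates 1, 2 and 3, coloured by strain, and in each gene shown the 3 wild-type libraries lie apart from all 6 libraries of the transgenic strains. Genes named by rule had to be called without overlap with wild type, so this separation follows in part from the choice of genes.

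Further members called higher were named after their values were seen. ifa-4 and ifd-2, which encode intermediate filament proteins, had log2 fold changes of 0.82 and 0.80 and of 0.64 and 0.68 against wild type, called in both comparisons. ifc-2, a further gene of this kind, was called in DPY-27::GFP (1.07 ± 0.302, edgeR adjusted p = 0.0441) and was at 0.88 ± 0.301 in the EQ strain (adjusted p = 0.096). glt-1, a glutamate transporter, had the largest upward change of a called member, 1.51 ± 0.441 in DPY-27::GFP (edgeR adjusted p = 0.049), from 5.69, 7.79 and 5.03 CPM in the wild-type libraries to 12.8, 31 and 8.12. Its value in the library labelled DPY-27::GFP replicate 2 was far above the other libraries of the strain. When each of the 9 libraries was left out in turn, glt-1 and ifc-2 kept their call in 2 fits each (adjusted p up to 0.203 and 0.165), ifa-4 in 2 for either strain (up to 0.15 and 0.212) and ifd-2 in 4 for either strain (up to 0.141 and 0.168). Over all members called higher, the median log2 fold change was 0.85 in DPY-27::GFP and 0.75 in the EQ strain, and 10 and 2 exceeded 1.

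Members called lower reached larger changes and smaller adjusted p. M03F4.6 (X, 4964056 to 4969328) was at 338, 398 and 396 CPM in the wild-type libraries, 31.4, 31.2 and 42.8 in DPY-27::GFP and 37.8, 33.4 and 39.5 in the EQ strain. Its log2 fold changes were -3.43 ± 0.162 (edgeR adjusted p = 7.95e-08) and -3.35 ± 0.161 (adjusted p = 9.34e-08). Its 3′ end overlaps that of act-4 on the opposite strand by 333 bp, and act-4 had 21.3 times its CPM on average. W01C8.1 (X, 5692336 to 5694898) was at 22.1, 27.5 and 26.0 CPM in the wild-type libraries, had 1, 0 and 0 counts in the DPY-27::GFP libraries and 0 in every EQ-strain library. Against a floor of 3 counts per library, its unscaled CPM was at least 66.9-fold lower in DPY-27::GFP and at least 84.1-fold lower in the EQ strain, with edgeR adjusted p of 1.72e-06 and 7.95e-07. It overlaps W01C8.5 on the opposite strand by 460 bp, a gene with 23.3 times its mean CPM. F53B1.2 (X, 2108975 to 2111871), at 60.8, 63.4 and 65.2 CPM in the wild-type libraries, fell to 17 to 29.9 in DPY-27::GFP libraries and 20.1 to 23.3 in the EQ strain, with log2 fold changes of -1.38 ± 0.188 (edgeR adjusted p = 0.000955) and -1.51 ± 0.187 (adjusted p = 0.000464). It overlaps bus-5 on the opposite strand by 101 bp, and bus-5 had 5.01 times its CPM.

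Overlap with a gene on the opposite strand, taken over whole gene spans with introns, held for a larger share of the members called lower. It was found for 8 of 27 (29.6%) in DPY-27::GFP and 7 of 18 (38.9%) in the EQ strain, for 4 of 26 (15.4%) and 2 of 16 (12.5%) of those called higher, and for 98 of all members (14.2%). Without overlapped members, a restriction chosen after seeing the data, DPY-27::GFP had 22 members called higher and 19 lower, and the EQ strain 14 and 11. In wild type, reads on no annotated feature were also many times more frequent for each read on a gene. Whether counting by strand differed between libraries was not tested.

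pfn-2 (F35C8.6; X, 5353021 to 5354112) encodes a profilin, an actin-binding protein, and has no such overlap. It was at 84.4, 88.6 and 83.6 CPM in the wild-type libraries, 36.2, 44.4 and 42.6 in DPY-27::GFP and 56.1, 50.7 and 50.6 in the EQ strain. The 3 strains did not overlap, with DPY-27::GFP the lowest. Its log2 fold changes were -1.06 ± 0.129 (edgeR adjusted p = 0.000412) and -0.71 ± 0.127 (adjusted p = 0.0071), and 0.35 ± 0.129 between the transgenic strains (adjusted p = 1). pfn-2 lost its call in the EQ strain without replicate 3 of that strain (adjusted p = 0.0572). aat-3 (F52H2.2; X, 2554221 to 2557718), an amino acid transporter, was at 131, 143 and 128 CPM in the wild-type libraries, 79.3, 80.2 and 77.2 in DPY-27::GFP and 97.2, 96.8 and 96.3 in the EQ strain. The strains were again apart, and its log2 fold changes were -0.76 ± 0.112 (edgeR adjusted p = 0.0016) and -0.47 ± 0.111 (adjusted p = 0.03), the second of which kept its call in 3 of 9 fits with a library left out (up to 0.131).

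pccb-1 (F52E4.1; X, 3089485 to 3092828) encodes a subunit of propionyl-CoA carboxylase, which breaks down propionate. It was at 1035, 981 and 955 CPM in the wild-type libraries, 490.2, 481 and 549.6 in DPY-27::GFP and 535, 479 and 588 in the EQ strain, with wild type apart from both. Its log2 fold changes were -0.97 ± 0.128 (edgeR adjusted p = 0.000777) and -0.89 ± 0.127 (adjusted p = 0.00156), and wrt-2 overlaps it on the opposite strand by 445 bp. F19G12.3 (X, 1425721 to 1426159) was low in all strains, at 3.01 to 3.95 CPM in the wild-type libraries, 0.602 to 1.30 in DPY-27::GFP libraries and 0.790 to 1.15 in the EQ strain, with log2 fold changes of -1.83 ± 0.342 (edgeR adjusted p = 0.00765) and -1.78 ± 0.323 (adjusted p = 0.0075). Among members called lower in both comparisons that the rule did not select, sel-12, which encodes presenilin, had log2 fold changes of -0.77 and -0.70. trap-2, a subunit of the translocon-associated complex of the endoplasmic reticulum, had -0.79 and -0.77. With each of the 9 libraries left out in turn, sel-12 kept its call in 5 and 3 fits (edgeR adjusted p up to 0.0931 and 0.146) and trap-2 in 6 and 4 (up to 0.11 and 0.143). All 6 named for DPY-27::GFP remained called lower when any 1 library was left out, and with the prefix as a covariate 1 of 6 (M03F4.6) and, in the EQ strain, 2 of 6 (M03F4.6 and W01C8.1) did. Without W01C8.1, which was at or near 0 counts, the log2 fold changes of the other 5 in that fit were 0.78 to 1.07 times those without the prefix in DPY-27::GFP and 0.84 to 1.07 times in the EQ strain.

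Levels between members differed widely. Of all members, 65 averaged at least 100 TPM over the 9 libraries, 7 at least 1000 and 42 under 1, and the 10 highest held 35.2% of the summed TPM of the region. act-4, an actin gene, was at 2267 ± 143 TPM (SD, n = 3) in the wild-type libraries, 2502 ± 263 in DPY-27::GFP and 2467 ± 373 in the EQ strain. On counts its log2 fold changes were -0.24 and -0.17 and it was not called (edgeR adjusted p 0.381 and 0.560), so the direction of act-4 differed between TPM and counts. Actin genes have near-identical copies, so its reads may be shared with them. pdi-2, a protein disulfide isomerase of collagen assembly, was at 2119 ± 54.8, 2481 ± 446 and 2428 ± 312 TPM. col-165, a cuticle collagen gene, was at 1039, 1093 and 1171 TPM in the wild-type libraries, 2049, 2344 and 1335 in DPY-27::GFP and 2177, 1426 and 2332 in the EQ strain. Its TPM did not overlap wild type, while its CPM did, and it was not called (log2 fold changes 0.30 and 0.41 on counts, edgeR adjusted p 0.415 and 0.265).

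The ribosomal protein genes rpl-25.1 and rpl-11.2 averaged 1529 and 1098 TPM and were not called in any comparison, with log2 fold changes of -0.32 and -0.13, and -0.13 and 0.013, in DPY-27::GFP and the EQ strain against wild type. T23F2.5 (X, 5516666 to 5517121) was the only one of the 6 most abundant members that was called. It was at 466, 342 and 467 CPM in the wild-type libraries, 145, 156 and 262 in DPY-27::GFP and 203, 193 and 183 in the EQ strain, with wild type above all others. Its log2 fold changes were -1.18 ± 0.211 (edgeR adjusted p = 0.00584) and -1.14 ± 0.210 (adjusted p = 0.00837). In the EQ strain it lost its call without wild-type replicate 3 or EQ-strain replicate 3 (adjusted p up to 0.0584), and in DPY-27::GFP with no library.

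The genes at the ends of the region were not called in any comparison. At the left end CE7X_3.2 (X, 7581 to 9303) had log2 fold changes of -0.051 and -0.17 against wild type in DPY-27::GFP and the EQ strain, VY35H6BL.2 -0.72 and -0.29, and VY35H6BL.1 0.95 and 1.0, with standard errors of 0.236 to 0.613. At the right end klp-13, a kinesin gene, had 0.52 and 0.45, and inx-3, a gap junction innexin, -0.35 and -0.38. inx-3 was at 826, 867 and 927 CPM in the wild-type libraries, 826, 525 and 701 in DPY-27::GFP and 635, 662 and 711 in the EQ strain.

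Groups of genes with a common role were read against the medians over all 13425 genes, which were -0.013 in DPY-27::GFP and -0.03 in the EQ strain against wild type. Of the X signal elements, whose dose sets sex by repressing xol-1, both members in the region were measured and 0 of 2 passed in any comparison. fox-1, an RNA-binding protein, was at 163, 182 and 203 CPM in the wild-type libraries, 161, 148 and 184 in DPY-27::GFP and 159.6, 159 and 186 in the EQ strain, with log2 fold changes of -0.16 and -0.12. Its libraries overlapped, as those of ceh-39 did between wild type and DPY-27::GFP.

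Of 30 genes in transcription factor families, 27 were members, with medians of 0.021 and 0.031, and DPY-27::GFP had 1 called higher and the EQ strain 2, with 0 lower. ceh-18, a POU homeobox gene with a known role in the gonadal sheath and oocytes, was at 10.6, 12.8 and 11.4 CPM in the wild-type libraries, 22.4, 43.2 and 14.3 in DPY-27::GFP and 28.6, 24.4 and 23 in the EQ strain. The library labelled DPY-27::GFP replicate 2 was the highest and replicate 3 of that strain the nearest to wild type. It was called in both comparisons (1.21 ± 0.308, edgeR adjusted p = 0.0298, and 1.12 ± 0.307, adjusted p = 0.0485). ceh-31, a BarH-class homeobox gene, was called in the EQ strain (0.74 ± 0.185, edgeR adjusted p = 0.0363), with 0.53 ± 0.188 (adjusted p = 0.0898) in DPY-27::GFP. Its neighbour in name and class, ceh-30, had -0.58 and -0.48 and was not called. With each library left out in turn, ceh-18 kept its call in 3 and 2 of 9 fits (edgeR adjusted p up to 0.131 and 0.204) and ceh-31 in 3 of 9 (up to 0.178). fkh-9, a forkhead gene and the most abundant of the group at 69.7 TPM, had 0.32 and 0.43 and was not called.

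Neuronal genes came from 2 groups. Of 12 neuropeptide genes, 9 were members, with medians of 0.30 and 0.40 against wild type, and 0 passed in any comparison. nlp-49, the most abundant at 46.3 TPM, was at 16.3, 20.5 and 15.7 CPM in the wild-type libraries, 20.1, 34.1 and 9.71 in DPY-27::GFP and 26.7, 19.5 and 26.0 in the EQ strain. Its DPY-27::GFP libraries spanned both the highest and the lowest value of all 9. The 15 neurotransmitter and peptide receptor genes had a median level of 1.05 TPM and medians of 0.11 and 0.20, and gbb-1 was the only one called in either comparison, higher in both. dop-1, a dopamine receptor, had 1.12 ± 0.395 (edgeR adjusted p = 0.0906) and 0.79 ± 0.394 (adjusted p = 0.229). The 5 axon guidance and signalling genes had medians of 0.20 and 0.062 and 0 passed. The most abundant of them, sax-3, the receptor for the guidance cue Slit, was at 94.3 TPM with log2 fold changes of 0.20 and 0.09.

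Of 7 cuticle collagen and body shape genes, 6 were members, with medians of -0.13 and -0.12, and 1 was called lower in both comparisons, with 0 higher. This was dpy-3, a cuticle collagen gene whose loss makes worms short, at 435, 564 and 471 CPM in the wild-type libraries, 219, 270.5 and 289 in DPY-27::GFP and 333, 237 and 367 in the EQ strain. Wild type lay above all others (-0.92 ± 0.179, edgeR adjusted p = 0.00968, and -0.65 ± 0.178, adjusted p = 0.0487). In DPY-27::GFP dpy-3 lost its call without wild-type replicate 3 or DPY-27::GFP replicate 1 (adjusted p up to 0.0686), and in the EQ strain it kept it in 2 of 9 such fits (up to 0.178). The 3 muscle genes act-4, unc-97 and unc-96 had medians of 0.27 and 0.30, and 0 passed. unc-97 and unc-96, which encode proteins of muscle attachment sites, had 0.27 and 0.30, and 0.30 and 0.40, and act-4 had -0.24 and -0.17 on counts.

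Yolk genes, normally transcribed in the adult intestine, were close to absent. The 4 members vit-2, vit-3, vit-4 and vit-5 averaged 0.39 to 0.823 TPM, and the last 3 are close copies whose reads may be shared. Their median log2 fold changes were 1.62 in DPY-27::GFP and 0.45 in the EQ strain against wild type, and 0 passed. vit-2 was at 2.59, 0.487 and 0.332 CPM in the wild-type libraries, 4.45, 10.4 and 4.06 in DPY-27::GFP and 5.92, 1.37 and 0.719 in the EQ strain, so that wild type lay below DPY-27::GFP and overlapped the EQ strain (2.43 ± 0.790, edgeR adjusted p = 0.0696, and 1.03 ± 0.832, adjusted p = 0.457). The only chaperone gene among the members, dnj-14, had -0.16 in both comparisons. Of 3 detoxification genes, gst-11, a glutathione S-transferase, was called higher in DPY-27::GFP (1.37 ± 0.384, edgeR adjusted p = 0.0427), with 1.13 ± 0.378 (adjusted p = 0.0901) in the EQ strain, from levels of 0.595 to 0.852 CPM in the wild-type libraries, and kept its call in 1 of 9 fits with a library left out (adjusted p up to 0.161). Autosomal heat-shock genes, of which 5 of 9 passed the count minimum and 1 was at 0 throughout, summed to 1661 to 3103 TPM in the wild-type libraries, 1960.4 to 4623 in DPY-27::GFP libraries and 1734 to 3525 in the EQ strain, with 0 called, and their part in the values of the region was not tested.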

How the data were processed

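The samples were 9 mRNA libraries of mixed embryos, grouped by the genotype in the labels. The authors deposited raw counts of reads per gene, identical in the single and merged tables, and TPM values with WS220 positions. Per the labels the libraries were strand-specific; the strand setting of the counting is not given in the sources used here, and the study's mRNA methods, written for another strain, state WS220 alignment and HTSeq counting. A pair of deposited tables with the authors' own fold changes and p-values was not used. The number of per-sample columns left unused was 0. Rows naming no gene held 12.6% to 58.2% of counts and were left out. Of the TPM features, 2 were listed more than once (the first row was used), and 1 gene of the count table without a position there was in no group.

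Genes with 10 counts in 3 libraries were scaled with TMM and all 9 libraries were fitted in one model by edgeR 4.0.16 (glmQLFit, glmQLFTest, Benjamini-Hochberg), in R 4.3.3, with log2 CPM at a prior count of 2. Counts per library and their left-out fits set the precision, and floors of 3 counts cover counting error only. Names and strand came from the WBcel235 annotation, which matched 677 of 690 members; figures were drawn with matplotlib 3.10.9. Alternatives were DESeq2 1.42.0, its size factors, other filters, a replicate block, the library name prefix, only the 2 strains compared, a border at 5000000 bp, chromosomes I to IV as reference, TPM with pseudocounts of 1 and 0.1 and each library left out. The fit was also run on simulated counts with the same setting of spread for every gene and no prefix or stage difference. Those counts cannot show how it behaves with the library differences found here.

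Members and lists were chosen with earlier results of these data known. The genes named were, for each comparison with wild type, the 6 called higher and 6 called lower with the smallest adjusted p and no overlap between strains, the 6 highest by TPM, the 3 nearest each end, and 2 to 4 examples of each list by TPM; others were named after their values were seen. Pairs of libraries of a strain differed beyond the sampling noise of their counts.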

Additional observations from a re-analysis of the deposited data

How the results depend on the processing

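Under 22 alternatives in each comparison, the shift of the left region moved by less than the pooled standard deviation within strains (0.11), a tolerance larger than the shift itself in DPY-27::GFP against wild type (0.062) and between the transgenic strains (0.049). Its sign changed with TPM and a pseudocount of 1 in DPY-27::GFP against wild type (-0.00072) and without DPY-27::GFP replicate 3 between the transgenic strains (-0.02). With single libraries left out it ranged from 0.012 to 0.15 in DPY-27::GFP and from 0.092 to 0.18 in the EQ strain against wild type, and from -0.02 to 0.14 between them. With no filter it was 0.15, 0.20 and 0.014, and with the prefix as covariate 0.12, 0.15 and 0.025.

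Counts of called members moved more. Members called higher in DPY-27::GFP numbered 60 with DESeq2, 0 with the prefix as covariate, 6 with only the 2 strains compared and 0 to 106 with a library left out. Those called lower numbered 1 with the prefix, 14 with 2 strains and 9 to 51 with a library left out. In the EQ strain those called higher numbered 52 with DESeq2, 10 over genes with 10 counts in every library, 26 with no filter, 0 with the prefix, 106 with 2 strains and 0 to 69 with a library left out. Those called lower numbered 30 with DESeq2, 2 with the prefix, 48 with 2 strains, 11 without members overlapped on the opposite strand and 6 to 41 with a library left out. The share of all genes called under each alternative is not given here, and the cause of these differences was not tested. Between the transgenic strains every alternative called 0. Members at an unadjusted edgeR p under 0.05 did vary there. They numbered 66 higher and 24 lower without the library labelled DPY-27::GFP replicate 2, beside 7 and 2 with all libraries.

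Replicate numbers were not treated as pairs. Same-numbered deviations correlated at 0.0716, 0.359 and 0.415 for DPY-27::GFP and wild type, at 0.0163, -0.222 and -0.0103 for the EQ strain and wild type and at -0.222, -0.422 and -0.115 between the transgenic strains. With a replicate block members called higher numbered 11 in DPY-27::GFP and 10 in the EQ strain, and those called lower 19 and 16. The block gave shifts of 0.062, 0.14 and 0.044.

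The 5 libraries of lower depth limit low members: 21 members were under 10 counts in all 5 of them.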
